A study of Homo sapiens with 8 samples.

Results

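The AP-1 and EGR immediate early factors are described here in the human line NB4, from an acute promyelocytic leukaemia that carries the PML-RARA fusion. The list holds 10 genes, JUN, JUNB, JUND, FOS, FOSB, FOSL1, FOSL2, EGR1, EGR2 and IER2, listed by gene name, with earlier results of these data known. Each was read from whichever of its probe sets, among those the annotation ties to a single gene, was brightest on average over all 8 arrays. EGR2 had no such probe set and has no value here, so 9 of 10 genes were measured, out of 18132 genes in all. All 9 passed the filter on low signal that left 12845 tested genes.

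The cells were infected for 2 or 5 days with a lentivirus (multiplicity of infection 10) that carried a hairpin against CDK2, the cyclin-dependent kinase of the G1/S transition, or a scrambled sequence. The groups are shCDK2 at day 2 and shCDK2 at day 5, each with hairpins #1, #3 and #10, and scramble at day 2 and scramble at day 5. Each construct and day has 1 array, so the hairpins stand in as repeats of the knockdown at a day, or the days as repeats of a hairpin. The labels call day 2 an early and day 5 a late stage of differentiation, and name no differentiating agent. All groups share the cell line, the medium with 10% serum and the viral infection, and an uninfected group was not analysed here. No label says that arrays came from separate cultures, so p-values measure the spread between these arrays, which may be partly technical. The values are log2 signals as the authors deposited them, with array medians of 6.30 to 6.43.

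CDK2 itself checks the labels. It stood below the scramble array of the same day by -1.33 log2 in hairpin #1 and -1.56 in hairpin #10 at day 2, but by -0.07 in the array labelled day 2 shCDK2 #3. At day 5 the differences were -0.30, -0.47 and -0.11 in #1, #3 and #10. The array labelled day 5 scramble itself lay -0.91 log2 below scramble at day 2. These values are of the brightest CDK2 probe set. Another also fell in scramble, from 9.19 at day 2 to 7.85 at day 5, but the dimmest stayed level, at 7.51 and 7.53. In the array labelled day 2 shCDK2 #3 they lay -0.31 and 0.11 from scramble. The low day 5 scramble value thus depends on the probe set. At day 2 the array labelled #3 was nearer to scramble than #1 and #10 in every CDK2 probe set. Directions below that rest on the array labelled day 2 shCDK2 #3 or on the array labelled day 5 scramble carry that doubt. The promyelocyte marker MPO, a granule peroxidase, had a mean of 14.11 log2 over the arrays, among the brightest signals, while the mean of ELANE, neutrophil elastase, was 6.18, near the array medians.

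AP-1 is a family of dimers of basic leucine zipper (bZIP) proteins, made of Jun proteins (JUN, JUNB, JUND) paired with each other or with Fos proteins (FOS, FOSB, FOSL1, FOSL2). These dimers bind the site TGACTCA and its close relatives, and EGR1 and EGR2 are zinc finger factors that bind a GC-rich site. Many of these genes are immediate early genes, which growth factors and stress switch on without new protein synthesis, through MAP kinases and, at CArG boxes, the serum response factor with its ELK partners. In myeloid cells JUN and EGR1 are known for their part in monocyte and macrophage differentiation.

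Promoters are shown for the 3 genes that varied most over the arrays, since the 5 motifs searched differ between them. RefSeq (GRCh38.p14) gave the 250 bases before the start for 9 of the 10 genes, FOSL1 being the exception. Both strands were searched for TGACTCA, TGACGTCA, TGACATCA, GCGNGGGCG (the EGR site) and the CArG box, and matches are in capitals. JUN lies at chr1:58784048-58784297 (minus strand), FOSL2 at chr2:28392608-28392857 (plus strand) and EGR1 at chr5:138465229-138465478 (plus strand), each window ending at the base before the start.
JUN: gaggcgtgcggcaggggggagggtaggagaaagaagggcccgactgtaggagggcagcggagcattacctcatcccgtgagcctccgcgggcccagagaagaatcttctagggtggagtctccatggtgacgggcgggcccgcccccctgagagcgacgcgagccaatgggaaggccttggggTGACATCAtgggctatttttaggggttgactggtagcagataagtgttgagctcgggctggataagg
FOSL2: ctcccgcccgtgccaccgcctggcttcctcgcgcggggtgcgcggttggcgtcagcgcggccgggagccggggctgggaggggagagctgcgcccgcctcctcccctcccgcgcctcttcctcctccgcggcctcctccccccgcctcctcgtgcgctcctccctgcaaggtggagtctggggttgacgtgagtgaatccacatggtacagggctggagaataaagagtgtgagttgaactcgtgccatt
EGR1: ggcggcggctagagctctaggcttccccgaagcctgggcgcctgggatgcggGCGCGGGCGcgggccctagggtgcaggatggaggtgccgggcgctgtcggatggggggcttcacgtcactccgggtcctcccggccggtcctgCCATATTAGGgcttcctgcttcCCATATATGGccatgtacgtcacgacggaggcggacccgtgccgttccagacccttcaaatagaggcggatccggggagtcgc
The JUN window holds a TGACATCA that begins 67 bases before the start. The EGR1 window holds a match to GCGNGGGCG at 198 bases and CArG boxes at 105 and 83 bases before the start. The FOSL2 window holds none of the 5. Of the others, JUND has a TGACGTCA 200 bases before the start, and the windows of JUNB, FOS, FOSB and IER2 have none. EGR2, not measured here, has 3 windows, of which 1 holds a CArG box 71 bases before its start. Of 35116 windows of this length in the same table, 2.37% held TGACATCA, 8.41% GCGNGGGCG, 1.16% a CArG box, 1.65% TGACGTCA and 4.2% TGACTCA. A match is a run of letters and does not show binding, and the absence of one says nothing about a factor.

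JUN, the founding AP-1 subunit, was the gene of the list that varied most. At day 2 its log2 signal was 7.11 in shCDK2 #1, 6.82 in the array labelled shCDK2 #3 and 9.38 in shCDK2 #10, against 6.30 in scramble. At day 5 it was 8.13 in #1, 9.34 in #3 and 10.96 in #10, against 7.08 in the array labelled day 5 scramble. All 6 hairpin arrays stood above the scramble array of their day, as did 4.61% of all tested genes, and hairpin #10 was highest at both days. Across days the groups overlapped, because shCDK2 #3 at day 2 lay under scramble at day 5. As a share of the same-day scramble signal, JUN stood at 175%, 143% and 848% in #1, #3 and #10 at day 2 and at 207%, 480% and 1469% at day 5. The range over the 8 arrays was 4.66 log2, larger than that of 99.7% of tested genes, whose median range was 0.68.

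JUN was called in hairpin #10. With construct and day as terms in limma, it rose by 3.48 log2 in #10 over scramble (SE 0.38, 95% confidence interval 2.59 to 4.37, adjusted p = 0.0154, 2 arrays of each). It was the only 1 of 9 measured factors called in that comparison, in which 2.01% of all 12845 genes were called. The call ended without the day term (adjusted p = 0.0769) and without either scramble array. The change was 3.94 without scramble at day 2 (adjusted p = 0.165) and 3.02 without the array labelled day 5 scramble (adjusted p = 0.188), and no gene of the table was called in either fit. With both doubted arrays left out, an alternative chosen after seeing the data, the change was 3.22. That fit keeps only the day 2 array of scramble and has few residual degrees of freedom, so passing in it is not read as support.

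The other hairpins stood lower. Hairpin #3 had a JUN change of 1.39 log2 (SE 0.38, interval 0.50 to 2.29, adjusted p = 0.341) and hairpin #1 one of 0.93 (SE 0.38, interval 0.04 to 1.82, adjusted p = 1). The background was 0.0311% of genes called in hairpin #3 and 0 in hairpin #1. In hairpin #1, 171 genes (1.33%) had an unadjusted p under 0.05, fewer than that cut-off passes by chance. Without the array labelled day 2 shCDK2 #3, which leaves hairpin #3 with its day 5 array only, JUN in hairpin #3 was 2.09 higher than in scramble. Set directly against hairpin #1, hairpin #10 had more JUN by 2.55 log2 (SE 0.38, interval 1.66 to 3.44), which missed the threshold (adjusted p = 0.0528), and 0.327% of genes were called between these hairpins. That difference passed with quantile normalization (adjusted p = 0.0495) and with an intensity trend (adjusted p = 0.0393). It also passed in 5 of 9 fits that left out arrays, among them those without shCDK2 #3, with adjusted p between 0.0148 and 0.296 over the 9. CDK2 differed between #10 and #1 by -0.02 log2 (SE 0.42, interval -0.996 to 0.960, adjusted p = 0.984).

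**Figure D1:**
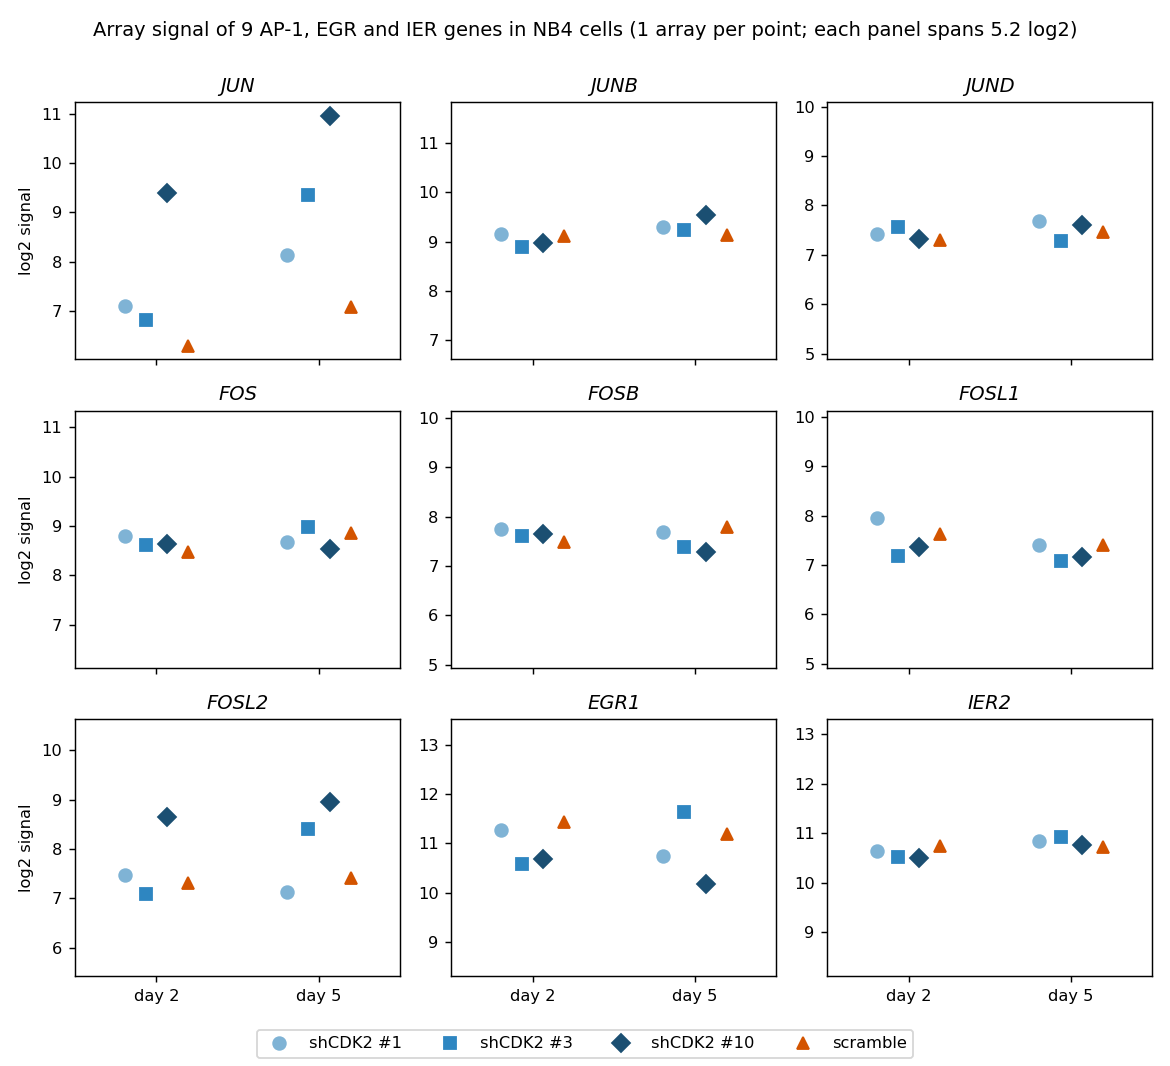
Log2 array signal of the 9 measured genes at day 2 and day 5, 1 point per array, with hairpins #1, #3 and #10 left of scramble and every panel spanning the same log2 distance. JUN is highest in hairpin #10 at day 5, at 10.96, and lowest in scramble at day 2, at 6.30, while the points of JUND span 0.41.

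FOSL2, the Fos protein also called FRA2, showed the next widest range, 1.86 log2. At day 2 its signal was 7.48 in #1, 7.09 in the array labelled shCDK2 #3 and 8.64 in #10, against 7.30 in scramble. At day 5 it was 7.13 in #1, 8.41 in #3 and 8.95 in #10, against 7.41 in the array labelled day 5 scramble. Hairpin #10 at both days and hairpin #3 at day 5 were high, and the other hairpin arrays lay around the scramble values. Hairpin #10 stood 1.44 log2 above scramble (SE 0.36, interval 0.61 to 2.27, adjusted p = 0.0831) and was not called. It was called without the arrays of hairpin #1 (adjusted p = 0.0493) or of hairpin #3 (adjusted p = 0.0197). Hairpin #3 stood 0.40 above scramble (SE 0.36, adjusted p = 0.715). Between hairpins #10 and #1 the difference was 1.49 (SE 0.36, interval 0.66 to 2.32, adjusted p = 0.118), and it was called without hairpin #3 (adjusted p = 0.0251). The number of genes called over the whole table also changed when arrays were left out, so these FOSL2 calls are not read as support.

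EGR1, the zinc finger factor of the list, was bright in every array and mostly lower in the hairpins. At day 2 its signal was 11.28 in #1, 10.58 in the array labelled shCDK2 #3 and 10.68 in #10, against 11.44 in scramble. At day 5 it was 10.75 in #1, 11.63 in #3 and 10.19 in #10, against 11.20 in the array labelled day 5 scramble. Hairpin #3 at day 5 was thus the highest of all 8 arrays and the 5 other hairpin arrays lay under the scramble array of their day. In hairpin #10 the difference from scramble was -0.88 log2 (SE 0.37, interval -1.75 to -0.01, adjusted p = 0.241), not called. It was called without hairpin #3 (adjusted p = 0.0292), and with both doubted arrays left out the difference was -0.75. The number of genes called over the whole table also changed when arrays were left out, so the EGR1 call is not read as support. In hairpin #3 the 2 days went opposite ways and the change was -0.21 (SE 0.37, adjusted p = 0.833). Between hairpins #10 and #1 the EGR1 difference was -0.58 (SE 0.37, interval -1.45 to 0.29, adjusted p = 0.486), not called.

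**Figure D2:**
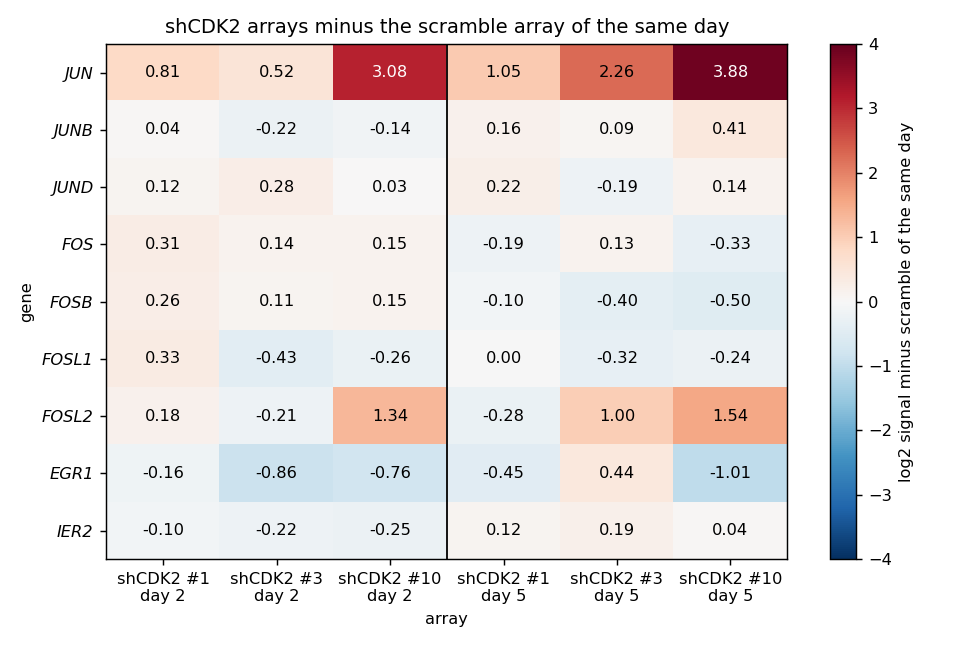
Log2 signal of each hairpin array minus the scramble array of the same day, with genes down the page and arrays across, red for higher and blue for lower. The JUN row is positive in all 6 arrays, from 0.52 to 3.88, and the FOSL2 row exceeds 1 in both arrays of hairpin #10.

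The remaining Jun proteins varied little. JUNB, which can oppose JUN in growth control, had 9.16, 8.89 and 8.97 log2 in #1, #3 and #10 at day 2, against 9.11 in scramble, and 9.29, 9.22 and 9.54 at day 5, against 9.13 in scramble. JUND, the Jun protein that resting cells also keep, ranged over 0.41 log2 in all. The hairpin and scramble arrays of JUNB and JUND overlapped, as did those of every measured gene of the list. Of all tested genes, 2.38% had every hairpin array above both scramble arrays and 5.08% had every one below. In hairpin #10 the JUNB difference was 0.13 (interval -0.33 to 0.60) and that of JUND 0.09 (interval -0.40 to 0.57).

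Of the Fos proteins other than FOSL2, none was called. FOS, the partner of JUN in the classical AP-1 dimer, had 8.79, 8.61 and 8.62 log2 in #1, #3 and #10 at day 2, against 8.47 in scramble. At day 5 FOS had 8.67, 8.98 and 8.52, against 8.86 in the array labelled day 5 scramble. In hairpin #10 its fitted difference was -0.09 (interval -0.58 to 0.40). FOSB ranged over 0.50 log2, with all 3 hairpins above scramble at day 2 and all 3 below the array labelled day 5 scramble. FOSL1, also called FRA1, ranged over 0.87, from 7.08 in shCDK2 #3 at day 5 to 7.96 in shCDK2 #1 at day 2. Its difference between hairpins #10 and #1 was -0.42 (interval -0.86 to 0.02, adjusted p = 0.337), the lowest adjusted p that JUNB, JUND, FOS, FOSB, FOSL1 or IER2 had in the 8 comparisons. IER2, an immediate early nuclear protein of another family, kept between 10.49 and 10.91 log2. For these 6 genes every hairpin array lay between -0.50 and 0.41 log2 of its same-day scramble. The ranges of 5 of them were under the median range of all tested genes, and that of FOSL1 was above it, as were the ranges of the other 3 FOS probe sets.

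**Figure D3:**
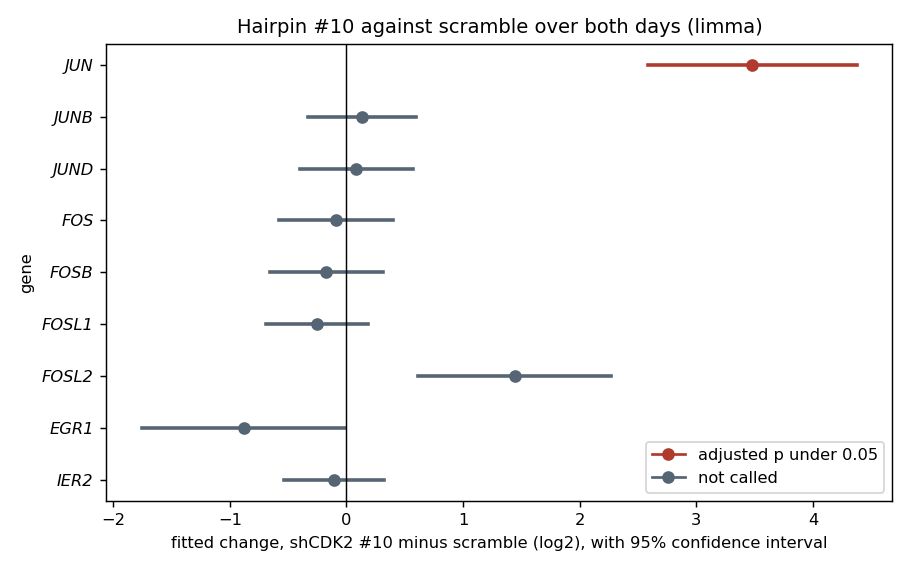
Fitted log2 change of hairpin #10 against scramble over both days for the 9 measured genes, with 95% confidence intervals from limma, red where the adjusted p over all tested genes was under 0.05. JUN lies at 3.48, FOSL2 at 1.44 and EGR1 at -0.88, and the intervals of the other 6 include 0.

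Taken by day, the pooled knockdown called no gene of the table, 0 of 12845 (0%) at either day with limma. The genes with an unadjusted p under 0.05 were 442 at day 2 (3.44%) and 171 at day 5 (1.33%), fewer than that cut-off passes by chance. JUN averaged 7.77 ± 1.40 log2 in shCDK2 at day 2 (SD, n = 3), against 6.30 in scramble, a change of 1.47 (SE 1.23, limma adjusted p = 1). At day 5 it averaged 9.48 ± 1.42 in shCDK2 (SD, n = 3), against 7.08 in scramble, a change of 2.40 (SE 1.23, limma adjusted p = 0.913). The SD among the hairpins was near the size of the day 2 change. FOSL2 in shCDK2 differed from scramble by 0.44 (SE 0.78) and 0.75 (SE 0.78) at day 2 and day 5, and EGR1 by -0.59 (SE 0.53) and -0.34 (SE 0.53), with adjusted p between 0.913 and 1.

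Over time JUN was higher at day 5 than at day 2 in every construct. The difference was 1.02 log2 in #1, 2.52 in #3 and 1.57 in #10, against 0.78 in scramble, and 11.1% of tested genes were higher at day 5 in all 3 hairpins. The fitted day difference in shCDK2 was 1.71 (SE 0.87, interval -0.35 to 3.76, limma adjusted p = 1), and the knockdown change at day 5 minus that at day 2 was 0.93 (SE 1.74, adjusted p = 1). No gene was called in either of these comparisons (0 of 12845). There 260 (2.02%) and 164 (1.28%) genes had an unadjusted p under 0.05, fewer than that cut-off passes by chance. FOSL2 and EGR1 were higher at day 5 in hairpin #3, by 1.32 and 1.05. EGR1 was lower at day 5 in #1 and #10, by -0.53 and -0.50. The hairpin #3 values all rest on the doubted day 2 array.

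Counted by array, members more than 1 log2 from scramble were few. At day 2 the counts above were 0, 0 and 2 of 9 in #1, #3 and #10, where 0.304%, 1% and 6.8% of all tested genes were that far above. At day 5 they were 1, 1 and 2 of 9, where 0.319%, 6.2% and 5.57% of all tested genes were. The genes were JUN and FOSL2 in hairpin #10 and JUN alone in the others, with FOSL2 in hairpin #3 at day 5 just under 1. The only member more than 1 log2 below was EGR1 in hairpin #10 at day 5, where 0.537% of tested genes were.

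Other probe sets of the same genes bear on these values. The 9 genes had 30 probe sets of a single gene. All 4 JUN probe sets were higher in hairpin #10 than in scramble, by 0.83 to 3.08 log2 at day 2 and by 1.50 to 3.88 at day 5. Their size differed, with a pair near 3 at day 2 and a pair near 1. All 5 FOSL2 probe sets were higher in hairpin #10 at both days, from 0.21 to 2.22 at day 2 and from 0.34 to 2.38 at day 5. All 6 EGR1 probe sets were lower in hairpin #10 at both days, and 5 of 6 were higher in hairpin #3 at day 5. Probe sets of FOS and FOSL1 parted more. The FOS probe set used, the brightest, stood 0.13 above scramble in hairpin #3 at day 5, where the other 3 gave 0.39, 0.83 and 1.44. In hairpin #10 at day 2 it gave 0.15, where they gave 0.47, 0.71 and 0.81. These 3 ranged over 0.90 to 1.95 log2, against 0.51 for the one used, so how little FOS varied depends on the probe set. With the mean of all FOS probe sets the hairpin #10 difference turned to 0.25, still not called (adjusted p = 0.68). All 6 FOSL1 probe sets were lower in hairpin #3 at both days, but at day 2 the one used gave -0.43 and the others -0.35 to -1.35. The probe sets used for JUNB, JUND, FOSB and FOSL1 carry the suffix that marks possible cross-hybridization. Those used for FOS and IER2 carry the suffix for probes shared among several transcripts. JUNB, JUND and IER2 have no further probe set.

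**Figure D4:**
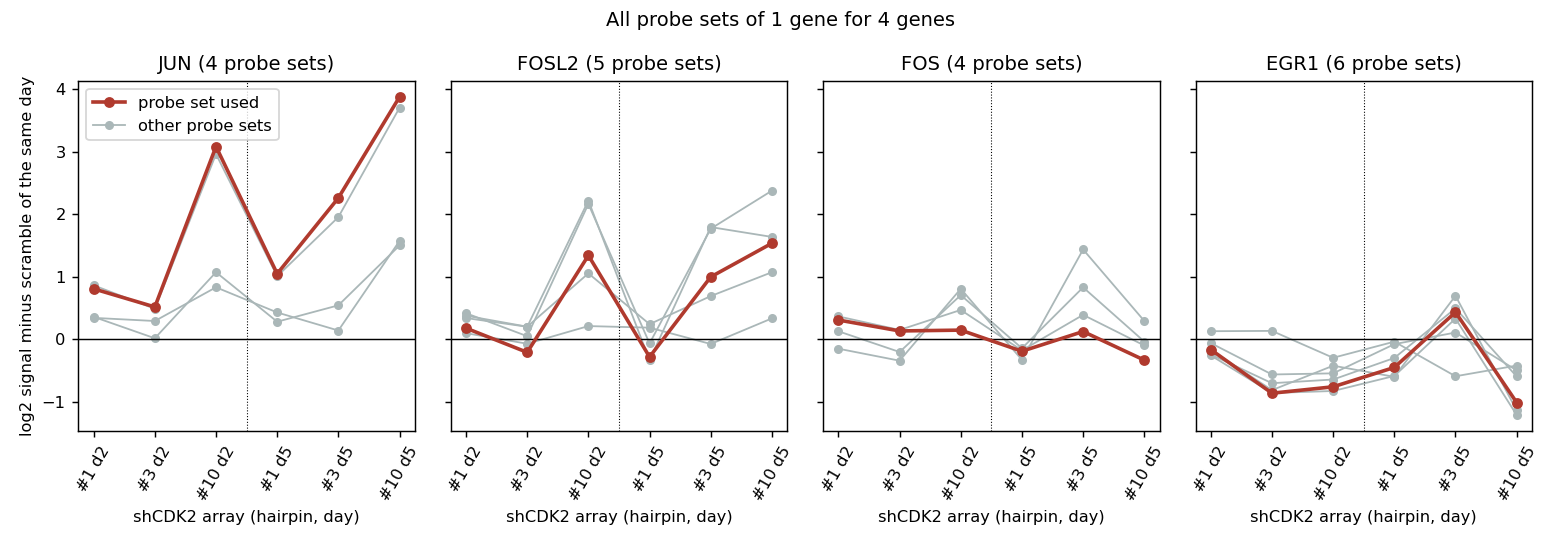
Log2 difference from the same-day scramble array for every probe set of JUN, FOSL2, FOS and EGR1, with hairpin and day along the axis, the probe set used in red and the others in grey, and a line joining the values of 1 probe set. All JUN lines lie above 0, and the FOS lines part in hairpin #3 at day 5, from 0.13 to 1.44.

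Genes around these factors were read from lists of 16 tested genes each, in hairpin #10 against scramble, where the median of all tested genes was -0.09 log2 and 1.69% were called higher and 0.319% lower. The lists were chosen with results of these data in view, so their counts are descriptions. The median of the 9 AP-1, EGR and IER genes was -0.09, and 4 of 9 were above 0. Among other bZIP factors the median was 0.32, with 11 of 16 above 0, 1 called higher and none lower. The called gene was NFIL3, a bZIP repressor, which rose by 1.16 log2 (SE 0.21, adjusted p = 0.0456). CEBPB, a factor of myeloid differentiation, stood at 1.33, the stress factor DDIT3 at 1.01 and the small Maf protein MAFF at 0.96, not called.

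Other immediate early genes had a median of 0.58, with 13 of 16 above 0, 1 called higher and none lower. That gene was BHLHE40, a helix-loop-helix repressor, at 1.65 (SE 0.30, adjusted p = 0.046). IER3, an immediate early survival factor, stood at 3.96 (SE 1.19, adjusted p = 0.123) and SGK1, a serum-induced kinase, at 3.46 (SE 0.73, adjusted p = 0.0614). TRIB1, a pseudokinase, stood at 1.76 and KLF6, a zinc finger factor, at 1.68, also not called. EGR3, a close relative of EGR1, lay -0.15 and -0.38 from scramble in hairpin #10 at day 2 and day 5.

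MAP kinases and ETS or SRF factors upstream had a median of 0.02, with 9 of 16 above 0 and none called in either direction. The widest were the ternary complex factor ELK3 at 1.65 (adjusted p = 0.125), MAP3K5 at 1.05, MAP2K1 at 0.86 and MAPK3, the kinase ERK1, at 0.78. Feedback inhibitors of the pathway had a median of 0.85, with 14 of 16 above 0, 3 called higher and none lower. DUSP5, a nuclear ERK phosphatase, rose by 3.37 (SE 0.51, adjusted p = 0.034). DUSP6, the cytoplasmic ERK phosphatase, rose by 2.36 (SE 0.45, adjusted p = 0.0495), and SPRY4, a Sprouty inhibitor of the RAS route, by 1.31 (SE 0.24, adjusted p = 0.047). SPRED1 stood at 1.19 and was not called.

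Textbook targets of AP-1 and EGR factors had a median of 1.74, with 14 of 16 above 0, 3 called higher and none lower. TIMP1, a metalloproteinase inhibitor, rose by 2.94 (SE 0.41, adjusted p = 0.0239), PLAUR, the urokinase receptor, by 2.42 (SE 0.42, adjusted p = 0.0438) and MMP9, the gelatinase, by 2.61 (SE 0.47, adjusted p = 0.0456). The cytokine IL1B stood at 4.85 (SE 1.14, adjusted p = 0.0771) and the adhesion receptor ICAM1 at 3.27 (SE 0.73, adjusted p = 0.0709), not called. In hairpin #1 the medians of these targets were 0.55 and 0.07 log2 above scramble at day 2 and day 5, and in hairpin #3 they were 0.13 and 1.21. Median centring of the arrays ended the calls of NFIL3, BHLHE40, DUSP5, DUSP6, SPRY4, MMP9 and PLAUR, with adjusted p between 0.0607 and 0.0799. Without the day term BHLHE40, DUSP5, DUSP6, SPRY4, TIMP1 and MMP9 were not called (adjusted p between 0.0514 and 0.176). DUSP6 and SPRY4 were also lost with the mean of probe sets (adjusted p = 0.0624 and 0.0861), DUSP6 further without the filter (adjusted p = 0.0508). Without either scramble array none of the 8 called list genes was.

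**Figure D5:**
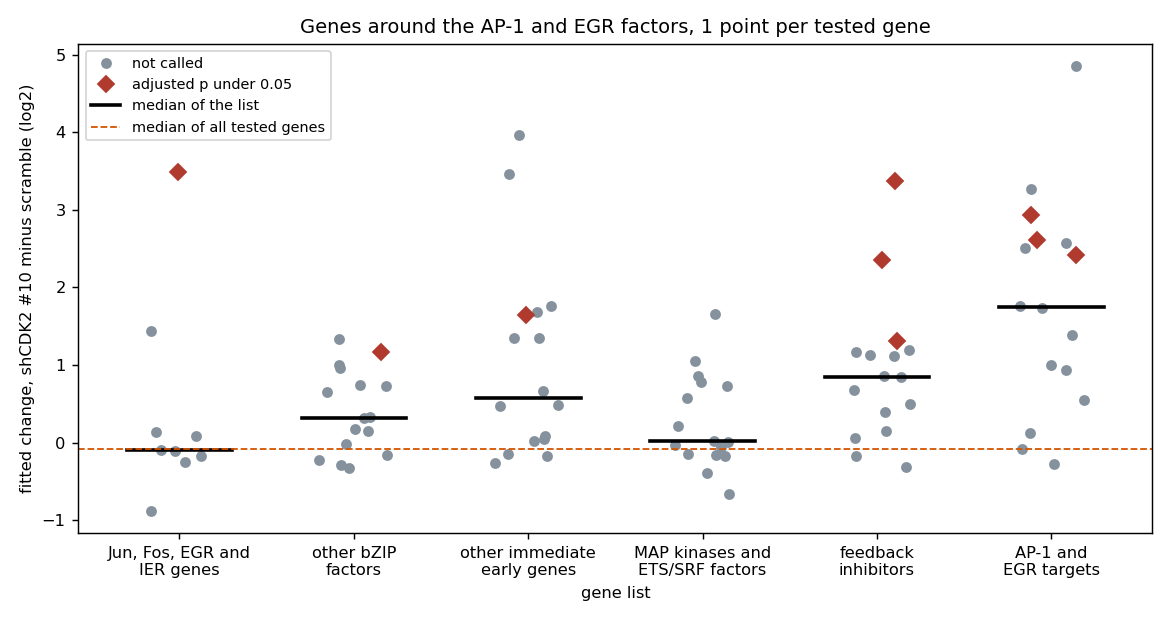
Fitted log2 change of hairpin #10 against scramble for each tested gene of 6 lists, with called genes as red diamonds, list medians as black bars and the median of all tested genes as a dashed line. The AP-1, EGR and IER genes have their median at -0.09 with JUN at 3.48, while the target list has its median at 1.74.

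Some markers of myeloid and other cells differed in the arrays where JUN was high, and others did not. The promyelocyte markers had a median of -0.52 in hairpin #10 against scramble, with 1 of 5 above 0 and none called. PRTN3, a granule protease, had 9.99 and 9.76 log2 in hairpin #10 at day 2 and day 5, against 11.18 and 10.76 in scramble. MPO had 13.37 and 14.09, against 14.35 and 14.14, and CTSG, another granule protease, 8.02 and 8.04, against 9.29 and 7.97. AZU1, a granule protein, went the other way at day 2, with 10.50 against 9.28, and had 8.39 against 8.83 at day 5. The log2 of the summed signal of 5 monocyte markers ran from 8.99 to 11.81 in hairpin arrays, against 8.86 to 9.40 in scramble. CD14 had 10.65 log2 in hairpin #10 and 8.43 in hairpin #3 at day 5, against 5.15 in the array labelled day 5 scramble, and CD163 had 10.28 and 7.92, against 4.86. At day 2, where JUN in hairpin #10 already stood 3.08 above scramble, CD14 had 5.76 in hairpin #10, against 5.19 in scramble. FCN1, the brightest monocyte marker, went the other way in hairpin #10 at day 5, with 7.49 log2 against 8.74 in the array labelled day 5 scramble, and at day 2 had 9.57 in hairpin #10 against 7.96 in scramble. In the fit over both days all 4 tested monocyte markers lay above 0 in hairpin #10 and none was called. VCAN, the other monocyte marker, was dim, with a mean of 4.45. The lymphoid sum ran from 9.58 to 11.41 in hairpin arrays, against 9.43 to 9.57 in scramble. It was led by CD3D, which rose by 2.25 in hairpin #10 (adjusted p = 0.0133), while MS4A1 was dim, with a mean of 4.31, and CD3E lay between 5.80 and 6.38 in all arrays. Erythroid sums were 7.66 to 8.13 in hairpin arrays, against 8.03 to 8.25 in scramble, and fibroblast and epithelial sums 8.42 to 8.85, against 8.71 to 8.72. The part of these markers in the JUN values was not tested. In bulk RNA a change in the share of cells of a type and a change of RNA per cell cannot be told apart.

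The genes most like the 3 widest members were found over the 8 arrays by the root mean square difference of profiles, each centred on its own mean. IL10RA, a subunit of the interleukin-10 receptor, was nearest to JUN at 0.28 log2, then BHLHE41 at 0.28 and PIK3R5 at 0.33, where a flat profile would lie at 1.51. Nearest to FOSL2 were AKAP13 at 0.15, SERINC1 at 0.16 and SEMA7A at 0.16, against 0.69 for a flat profile. Nearest to EGR1 were HDAC1 at 0.17, MCM9 at 0.18 and METTL21A at 0.18, against 0.46 for a flat profile. Within the list the profiles of JUN and FOSL2 lay 0.93 apart, the smallest distance JUN had to another member. These distances describe 8 arrays and carry no test.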

How the data were processed

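The authors deposited log2 signals for 49395 Affymetrix probe sets on 8 arrays, made with Partek per the submitters' processing notes. The sources used here do not give its version or the normalization, and the log2 scale was read from the range of the values. Biotinylated cRNA came from 6 ug of total RNA, per the labels' protocols. Values were used unchanged. The platform annotation gave 44994 probe sets 1 gene, 1832 several and 2569 none, and 44967 symbols were updated through RefSeq. A gene was tested if its mean exceeded 5.83 log2, the 40th percentile over probe sets.

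Limma 3.58.1 (R 4.3.3 with the data.table package, version 1.17.8) fitted 4 group means (4 residual degrees of freedom, prior 3.13), where the lone scramble array of a day is taken to vary as hairpin arrays do, or construct and day (3 residual degrees of freedom, prior 4.54). Tests were two-sided, and Benjamini-Hochberg adjustment ran over all tested genes at 0.05. Simulated data with independent noise and no day effect checked the size of the fitted changes, not the p-values for arrays without repeats. Hairpin comparisons share the scramble arrays. The number of arrays limits the precision, and no measure of background was used.

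The members and lists were chosen with earlier results of these data known. Named genes were all members, CDK2, called list genes and up to 4 list genes with the widest change in hairpin #10 (2 for marker lists), with the 3 genes most like each of the 3 widest members. EGR3, MS4A1, VCAN, CD3E, FCN1, MPO, ELANE and AZU1 were named after their values were seen. Alternatives were quantile normalization, median centring, mean of probe sets, no filter, an intensity trend, construct as a block, no day term and leaving out arrays.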

Additional observations from a re-analysis of the deposited data

Results flagged for a closer look

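FOSB, a Fos protein, and IER2, an immediate early nuclear protein, had knockdown differences of opposite sign at the 2 days in all 3 hairpins. FOSB lay 0.26, 0.11 and 0.15 log2 above scramble in #1, #3 and #10 at day 2, and -0.10, -0.40 and -0.50 from the array labelled day 5 scramble. The knockdown change at day 5 minus that at day 2 was -0.51 (SE 0.32, interval -1.25 to 0.24, limma adjusted p = 1). IER2 lay -0.10, -0.22 and -0.25 from scramble at day 2 and 0.12, 0.19 and 0.04 above it at day 5, and the same difference was 0.30 (SE 0.27, interval -0.33 to 0.94, limma adjusted p = 1). All 3 hairpins of a day share 1 scramble array, and neither difference passed. Scramble itself had FOSB at 7.49 log2 at day 2 and 7.79 at day 5. The share of all tested genes with such a turn of sign is not given here, so it is not read as a trait of FOSB or IER2.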

How the results depend on the processing

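Of the 9 measured factors, 1 was called in hairpin #10 against scramble, and 0 to 3 when arrays were left out. The extremes were 0 without scramble at day 2 or at day 5, where no gene of the table was called, and 3 (JUN, FOSL2 and EGR1) without hairpin #3. The share of all genes called without hairpin #3 is not given here, so the FOSL2 and EGR1 calls are not read as a result about these factors. Leaving out both doubted arrays left scramble and hairpin #3 with 1 array each. With so few residual degrees of freedom, calls gained in that fit are not counted. Over all genes 258 were called, but 82 with median centring, 147 without the day term and 0 to 965 with arrays left out. Between hairpins #10 and #1 no factor was called, 1 was with quantile normalization and 1 with an intensity trend, and 0 to 2 with arrays left out. Over all genes that comparison gave 42, but 0 with median centring, 19 with the mean of probe sets, 15 without the day term, 71 with an intensity trend and 0 to 617 with arrays left out. In hairpin #3 the count was 0 to 1 with arrays left out. Over all genes hairpin #3 gave 4, but 0 with median centring or the mean of probe sets, 1 without the day term, 9 with an intensity trend and 0 to 215 with arrays left out. In hairpin #1, at either day, between days and for the difference of the knockdown changes, no gene was called under any alternative run.

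The replicate numbers are hairpin numbers, so they join the day 2 and day 5 arrays of a construct by design. Deviations of the same hairpin at both days correlated at 0.72 for #1, -0.23 for #3 and 0.43 for #10. Those of #10 at day 2 correlated at 0.57 with #3 at day 5. The labels were kept. With construct as a replicate block, 0 of the 9 factors and 0 genes were called in the day and knockdown comparisons. Without the day term, 0 factors were called in hairpin #10.

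Signs turned only for values that were not called. Over fits that left out arrays, the hairpin #10 difference ran from -0.072 to 0.34 for JUNB, -0.032 to 0.20 for JUND, -0.26 to 0.074 for FOS, -0.43 to 0.079 for FOSB and -0.26 to 0.049 for IER2. The FOS value was 0.25 with the mean of its probe sets. Without both doubted arrays JUNB stood at -0.034, FOS at 0.15 and FOSB at 0.079. In hairpin #3, EGR1 ran from -0.95 to 0.53 (0.70 without both doubted arrays) and FOSL2 from -0.25 to 1.04. FOSL2 at day 2 ran from -0.013 to 0.76. The causes were not tested.

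Among the called list genes, leaving out hairpin #10 at day 2 ended the calls of NFIL3, DUSP6, SPRY4 and MMP9, and leaving it out at day 5 those of NFIL3, BHLHE40, SPRY4 and PLAUR. Without both doubted arrays BHLHE40, SPRY4 and PLAUR were not called. NFIL3 was also not called without the arrays of hairpin #1.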

Other observations

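MMP1, the interstitial collagenase and a classical AP-1 target, stood under the filter on mean signal and was not tested. It is named here after its values were seen. Its log2 signal was 3.68, 3.39 and 3.93 in shCDK2 #1, #3 and #10 at day 2, against 3.52 in scramble. At day 5 it was 3.70 in #1, 5.89 in #3 and 11.56 in #10, against 3.39 in the array labelled day 5 scramble. The collagenase signal was thus high in 1 array and intermediate in another, and no repeat of either array exists here. At day 5 the arrays stood in the same order for JUN. At day 2 they did not match in size, since hairpin #10 had JUN at 9.38, near the 9.34 of hairpin #3 at day 5, but MMP1 at 3.93. A link between the 2 genes was not tested.

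THBS1, a matrix glycoprotein in the target list, also named after its values were seen, lay -2.53 log2 from scramble in the array labelled day 2 shCDK2 #3 and 3.39 above it in hairpin #10 at day 5. DUSP2, a nuclear phosphatase, lay -1.64 from scramble in that same day 2 array of hairpin #3.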
